A study of Mus musculus with 768 samples.

Results

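Chac1 and 9 genes of the integrated stress response were followed through 7 days of cochlear organoid culture: Atf4, Ddit3, Atf3, Trib3, Slc7a11, Asns, Psat1, Sesn2 and Hspa5. They were taken by symbol from the 52636 genes listed for each cell, and all 10 were found. All 10 also passed the filter on low counts, as did 17466 genes in all. The genes were selected on these data: Chac1 was chosen by its difference between day 3 and day 1, and the other 9 as known companions of Chac1 with results of the series in view. Every level of Chac1, and every day 3 against day 1 value of the 10 genes, is therefore a description with no test. The day 7 tests of the other 9 reuse the day 1 or day 3 cultures, so their p-values are not free of this choice.

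The cultured tissue was the greater epithelial ridge (GER), a transient strip of cochlear epithelium medial to the hair cells, taken from mice on postnatal day 2. The strain label was Fgfr3-CreERT2/Ai14-tdTomato/Sox2-GFP, in which a tamoxifen-inducible Cre is placed under Fgfr3, a tdTomato reporter is switched on by Cre and GFP marks Sox2; the labels used here mention no tamoxifen. All cultures had the same medium, DMEM/F-12 with N-2, B-27, ampicillin, EGF, FGF2, IGF1, the GSK3 inhibitor CHIR99021, the histone deacetylase inhibitor valproic acid, 2-phospho-L-ascorbic acid and the TGFβ receptor inhibitor 616452, and there is no group without these compounds. By the labels the 3 groups differ in day of culture, but the days are also spread unequally over the 2 deposited files: the first holds 1 of 3 cultures of day 1, 1 of 3 of day 3 and 4 of 5 of day 7. Organoids were dissociated with trypsin, and 768 single cells were picked by hand for SmartSeq2, which amplifies whole transcripts by PCR and carries no tags that mark single molecules. After filtering, 182 cells of 3 cultures on day 1, 228 cells of 3 cultures on day 3 and 301 cells of 5 cultures on day 7 remained. The labels do not say whether the cultures of a day came from separate animals, so p-values measure the spread between these cultures only.

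In the integrated stress response, kinases that sense amino acid shortage, unfolded proteins in the endoplasmic reticulum (ER), haem shortage or viral RNA phosphorylate the translation factor eIF2. Most translation then slows while that of the transcription factor ATF4 increases, and ATF4 with its partners switches on genes for amino acid supply, tRNA charging, redox balance and, when stress lasts, cell death. Chac1 is one of these targets and encodes a γ-glutamylcyclotransferase that breaks down glutathione.

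Composite elements bound by ATF4 together with C/EBP proteins have the core TGATGNAA, which was searched for on both strands in the RefSeq promoter windows (GRCm38.p6) from 250 bases before to 50 bases after the first base of the transcript, counted as +1. It was present in 5 of the 10 genes, and in 3.97% of all 32851 windows. The sequences are shown because they hold the element near the annotated start of Chac1, which has the largest day 3 ratio of the 10 genes, and of 4 of its companions. Each reads 5′ to 3′ along the transcript, with matches in capitals (a match on the other strand appears as its reverse complement). The Chac1 stretch is chr2:119350992-119351228 (+) and ends at position -14, before the first annotated exon base. Its match lies at -193 to -186.
Chac1: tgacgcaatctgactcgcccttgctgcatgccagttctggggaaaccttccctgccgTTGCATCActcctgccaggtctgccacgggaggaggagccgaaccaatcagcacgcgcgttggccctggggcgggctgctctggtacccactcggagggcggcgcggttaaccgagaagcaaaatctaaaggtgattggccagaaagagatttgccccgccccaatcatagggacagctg
Atf3: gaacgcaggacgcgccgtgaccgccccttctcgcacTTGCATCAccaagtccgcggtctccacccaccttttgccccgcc
Slc7a11: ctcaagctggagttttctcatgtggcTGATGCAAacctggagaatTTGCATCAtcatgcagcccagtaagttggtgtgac
Trib3: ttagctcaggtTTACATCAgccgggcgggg
Asns: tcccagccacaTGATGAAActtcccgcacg

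The Atf3 stretch is chr1:191183400-191183479 (-), with its match at -110 to -103. Slc7a11, at chr3:50443626-50443705 (-), holds 2 matches in opposite orientation at -66 to -59 and -47 to -40. Trib3, at chr2:152344028-152344057 (-), has its match at 15 to 22 after the start. Asns, at chr6:7693214-7693243 (-), has it at -23 to -16 on the forward strand, in a stretch whose 30 bases all lie in annotated exons. The windows of Atf4, Ddit3, Sesn2, Psat1 and Hspa5 hold no match to these letters. Hspa5 alone held the ER stress response element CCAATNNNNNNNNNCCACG, which is found in 0.119% of all windows. It is shown from chr2:34772020-34772049 (+), with the match at -65 to -47.
Hspa5: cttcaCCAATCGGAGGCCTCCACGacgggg

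The cyclic AMP response element TGACGTCA was in 0 of the 10 genes and in 1.79% of all windows. No match of one motif overlapped a match of another. A match is a description of the sequence and not a measured binding site.

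Summed over its cells, a culture had between 26391412 and 72483565 reads on genes, and levels are given as CPM, the reads of a gene in a culture scaled to a common total with TMM factors. Median genes per cell ran from 5681 in day 7 replicate 5 to 7156 in day 7 replicate 3, and median mitochondrial reads from 2.72% in day 1 replicate 1 to 6.76% in day 7 replicate 5. All 10 GER and epithelial markers (among them Epcam, Tecta and Tectb) were detected in all 11 cultures. Their summed level was 11351 to 16117 CPM on day 1, 5299 to 9027 CPM on day 3 and 3374 to 5283 CPM on day 7. Much of this fall was that of Tectb, with means of 8308, 3622 and 692 CPM. From day 1 to day 7, 8 of the 10 were lower and 2 higher, and 4 passed edgeR's test, all lower. Jag1 was higher, with means of 188 CPM on day 1 and 394 CPM on day 7. Hair cell markers summed to 28.9 to 62.9 CPM on day 1, 45.0 to 192.3 CPM on day 3 and 21.5 to 40.5 CPM on day 7, with 0 of 7 at 0 in every day 3 culture and 5 or 6 of 7 at 0 in 6 of the other 8 cultures. Mesenchyme markers stayed between 1.58 and 45.2 CPM, glia and melanocyte markers between 49.3 and 88.2 CPM, and immune, blood and endothelial markers between 0 and 7.46 CPM. The part of these shifts in the results below was not tested. In summed libraries, fewer cells with a transcript and fewer transcripts per cell cannot be told apart, so shares of cells are given separately.

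Chac1 (ENSMUSG00000027313.3, GRCm38 chromosome 2, 119351229 to 119354381) was nearly absent on day 1, at 3.63, 2.12 and 1.33 CPM. It stood at 53.3, 50.5 and 39.2 CPM on day 3, and at 15.0, 16.5, 6.54, 24.3 and 27.1 CPM on day 7. Every day 3 culture was above every day 7 culture, and every day 7 culture above every day 1 culture. The means were 2.36 ± 1.17 CPM (SD, n = 3), 47.7 ± 7.48 CPM (n = 3) and 17.9 ± 8.14 CPM (n = 5), which puts day 3 20.2-fold above day 1 and 2.67-fold above day 7. The fitted log2 ratios were 4.33 (SE 0.54) for day 3 against day 1, 2.92 (SE 0.49) for day 7 against day 1 and -1.41 (SE 0.41) for day 7 against day 3. Chac1 was 1 of 2 genes that edgeR called between day 3 and day 1, 0.0115% of the genes tested, and that call is what selected it. The order held within each deposited file: 3.63, 53.3 and a mean of 15.6 CPM in the first, and means of 1.72 and 44.8 and a value of 27.1 CPM in the second. The size did not: the log2 ratio of day 7 to day 1 was 2.05 in the first file and 3.95 in the second, which has 1 day 7 culture, and there that of day 7 to day 3 was -0.71.

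**Figure D1:**
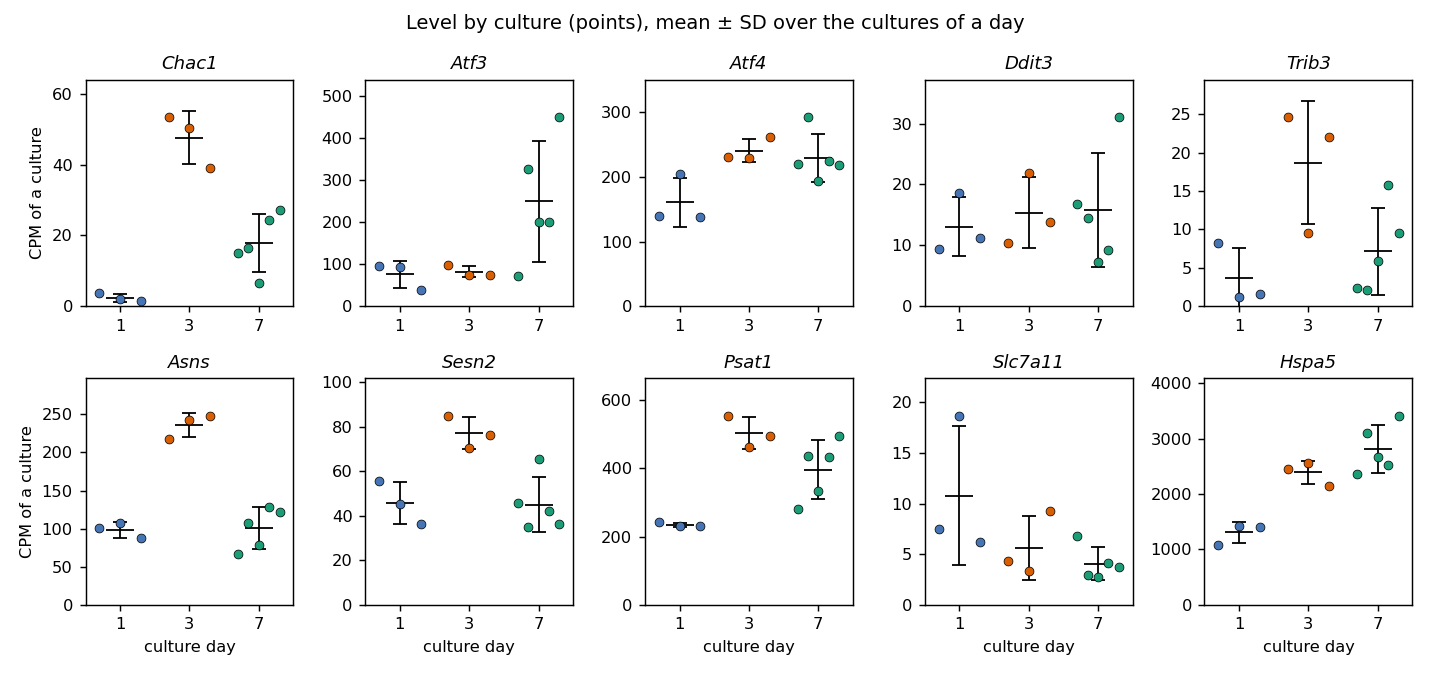
CPM of each culture (points) on culture days 1 (n = 3), 3 (n = 3) and 7 (n = 5) for the 10 genes, with the mean and SD over cultures as bars; each panel has its own axis from 0. Chac1, Trib3, Asns, Sesn2 and Psat1 have their highest day mean on day 3, while Atf3 and Hspa5 have it on day 7.

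Day 3 levels were above day 1 levels in 9 of the 10 genes, with a median log2 ratio of 0.81 beside 0.02 over all genes tested. In 7 of the 10 (Chac1, Atf4, Trib3, Asns, Sesn2, Psat1 and Hspa5) the day 3 cultures were higher without overlap, beside 9.88% of all genes; 0 of the 10 were lower without overlap, beside 8.11% of all genes. Nothing is read from these counts, since this contrast took part in the choice of genes. Between day 7 and day 1, 8 of the 10 were higher on day 7, with a median log2 ratio of 0.64 beside 0.00 for all genes. Of the 9 genes that could be tested, 2 rose (Psat1 and Hspa5) and 0 fell at an adjusted p under 0.05 by edgeR's quasi-likelihood test, where 7.11% of all genes were called, 3.55% upwards and 3.56% downwards. Chac1, Psat1 and Hspa5 were higher on day 7 without overlap (8.71% of all genes were, and 9.06% were lower). Between day 7 and day 3, 3 of the 10 were higher and 7 lower on day 7, with a median of -0.41 beside 0.01, and 1 of 9 (Asns) fell, where 0.968% of all genes were called. Chac1, Asns and Sesn2 were lower than on day 3 without overlap (5.14% of all genes were, and 2.99% were higher). The day 7 contrasts share the day 7 cultures, and the day 1 contrasts the day 1 cultures, so they are not independent of each other. Nor are they independent of the choice of genes.

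Among the regulators, Atf4 (ENSMUSG00000042406.7), the transcription factor at the centre of the response, was present in nearly all cells on every day. Its levels were 140, 205 and 137 CPM on day 1, 231, 230 and 262 CPM on day 3, and 220, 292, 193, 225 and 219 CPM on day 7. The day 3 cultures were all above the day 1 cultures, and 1 day 7 culture (193 CPM) lay below the highest day 1 culture. The day 7 against day 1 difference of 0.52 on the log2 scale (SE 0.19) did not pass the test (adjusted p = 0.114, edgeR), nor did that against day 3, at -0.07 (SE 0.18, adjusted p = 0.953). The ATF4 protein is set largely by translation, which these libraries do not measure.

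Ddit3 (ENSMUSG00000025408.15, chromosome 10, 127290774 to 127296288), which encodes the stress transcription factor CHOP, stayed low. Its cultures had 9.41, 18.6 and 11.2 CPM on day 1, 10.4, 21.9 and 13.8 CPM on day 3, and 16.7, 14.5, 7.23, 9.19 and 31.0 CPM on day 7. The 3 days overlapped fully, and the fitted differences of day 7 from day 1 (0.27, SE 0.46, adjusted p = 0.785) and from day 3 (0.03, SE 0.46, adjusted p = 0.992) were smaller than their errors.

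Atf3 (ENSMUSG00000026628.13, chromosome 1, 191170296 to 191218039), a transcription factor induced by several stress and growth signals, had its highest levels on day 7. Its levels were 94.7, 93.1 and 38.5 CPM on day 1 and 97.1, 75.1 and 73.3 CPM on day 3. On day 7 they were 72.1, 327, 201, 200 and 450 CPM, so that 4 of 5 cultures were above every earlier culture and replicate 1 was not. The difference from day 1, 1.73 on the log2 scale (SE 0.49), just missed the threshold (adjusted p = 0.0515), and without day 7 replicate 1 it passed at 1.96. That from day 3 was 1.61 (SE 0.49, adjusted p = 0.171). The summed level of 14 immediate early genes was also highest on day 7, at 785 to 1579 CPM on day 1, 1294 to 1671 CPM on day 3 and 2186 to 4621 CPM on day 7. By culture the match was partial. Day 7 replicates 2 and 5 were highest in both, but replicate 1, lowest in Atf3, had a sum of 3254 CPM. The lowest day 7 sum was that of replicate 3, with Atf3 at 201 CPM. The part of these genes in the Atf3 levels was not tested.

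Trib3 (ENSMUSG00000032715.9, chromosome 2, 152337422 to 152344032), a pseudokinase induced by ATF4 and CHOP that dampens ATF4 activity, had the second largest ratio of day 3 to day 1 of the 10 genes, at 5.16-fold. It had 8.16, 1.15 and 1.55 CPM on day 1, 24.6, 9.54 and 22.0 CPM on day 3, and 2.42, 2.05, 5.93, 15.7 and 9.52 CPM on day 7. All day 3 cultures were above all day 1 cultures, with day 3 replicate 2 only just so, and day 7 overlapped both. Its day 7 differences, 0.98 from day 1 (SE 0.78, adjusted p = 0.494) and -1.39 from day 3 (SE 0.73, adjusted p = 0.513), did not pass. That from day 1 ran from 0.42 to 2.35 when 1 culture was left out, the highest being without day 1 replicate 1 (adjusted p = 0.167).

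Slc7a11 (ENSMUSG00000027737.10, chromosome 3, 49892526 to 50443614), the cystine importer that feeds glutathione synthesis, was low throughout and had its highest mean on day 1. It had 7.47, 18.6 and 6.21 CPM on day 1, 4.33, 3.34 and 9.24 CPM on day 3, and 6.75, 2.94, 2.78, 4.09 and 3.74 CPM on day 7. The days overlapped, and the day 7 against day 1 difference of -1.41 (SE 0.51) did not pass (adjusted p = 0.111 by edgeR, 0.0428 by DESeq2). Without day 1 replicate 2 it was -0.75 (adjusted p = 0.483). Against day 3 it was -0.47 (SE 0.51, adjusted p = 0.836). Few cells carried most of these reads: in day 1 replicate 2, 92.7% of the Slc7a11 reads came from its 5 highest cells. Of its deposited values above 0, 10.1% were not whole numbers, against 0 for the other 9 genes, so some of its reads were shared with another locus by the counting.

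The amino acid genes had their highest means on day 3. Asns (ENSMUSG00000029752.12, chromosome 6, 7675169 to 7693254), asparagine synthetase, had 100.2, 107.9 and 87.2 CPM on day 1, 218, 242 and 248 CPM on day 3, and 66.2, 107.9, 78.7, 128.8 and 122.1 CPM on day 7. The lowest day 3 culture was well above the highest of the other 8. Asns fell from day 3 to day 7 by 1.23 on the log2 scale (SE 0.21, adjusted p = 0.0216, edgeR). Its day 7 level did not differ detectably from day 1 (0.03, SE 0.22, adjusted p = 0.95). The fall was tested on day 3 cultures that took part in the choice of genes. The call was lost without day 3 replicate 2 or day 3 replicate 3 (adjusted p of 0.0949 and 0.0890) and in each deposited file alone.

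Psat1 (ENSMUSG00000024640.9, chromosome 19, 15904678 to 15947337), phosphoserine aminotransferase of the serine pathway, had a day 7 mean between those of the other days. It had 241, 230 and 231 CPM on day 1, 554, 462 and 494 CPM on day 3, and 282, 436, 334, 434 and 495 CPM on day 7. Day 1 was below both later days without overlap, and day 3 and day 7 overlapped. Psat1 rose from day 1 to day 7 by 0.76 on the log2 scale (SE 0.19, adjusted p = 0.0313), and the difference from day 3 was -0.35 (SE 0.18, adjusted p = 0.510). The rise missed the threshold when any of 7 single cultures was left out (day 1 replicates 1, 2 and 3, day 3 replicates 1 and 3, day 7 replicates 2 and 4; adjusted p from 0.0515 to 0.118).

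Sesn2 (ENSMUSG00000028893.8, chromosome 4, 132492032 to 132510501), a leucine sensor that restrains mTORC1, had the shape of Asns. It had 55.5, 45.3 and 36.3 CPM on day 1, 84.7, 70.3 and 76.3 CPM on day 3, and 45.8, 35.1, 65.7, 42.0 and 36.3 CPM on day 7. The day 3 cultures stood above all others, and day 1 and day 7 overlapped. The day 7 against day 3 difference was -0.78 (SE 0.23, adjusted p = 0.158) and that against day 1 -0.02 (SE 0.23, adjusted p = 0.969); neither passed.

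Hspa5 (ENSMUSG00000026864.13, chromosome 2, 34771970 to 34777547), the ER chaperone BiP and a target of the unfolded protein response, had its highest mean on day 7. It had 1085, 1425 and 1414 CPM on day 1, 2463, 2561 and 2154 CPM on day 3, and 2361, 3108, 2666, 2534 and 3410 CPM on day 7. Every later culture was above every day 1 culture, while day 3 and day 7 overlapped. Hspa5 rose from day 1 to day 7 by 1.11 on the log2 scale (SE 0.17, adjusted p = 0.00371), in 5 of 5 cultures, and the difference from day 3 was 0.24 (SE 0.16, adjusted p = 0.678). The rise passed under 21 of 22 alternatives, the exception being the first file alone, which holds 1 day 1 culture (adjusted p = 0.129).

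In single cells, each thinned to 200000 reads (695 cells), Chac1 was a gene of a minority of cells on every day. It had a read in 15.4%, 5.88% and 5.26% of the cells of the day 1 cultures, in 42.9%, 30.3% and 27.8% on day 3, and in 15.4%, 13.5%, 8.70%, 20.5% and 20.0% on day 7. All day 3 shares were above all others, and day 1 and day 7 overlapped. Pooled, these were 15 of 175, 76 of 222 and 48 of 298 cells.

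The reads per positive cell separated the days in another way. Among Chac1-positive cells the median was 4 reads for day 1, 16.5 for day 3 and 17 for day 7. Cells with at least 10 reads numbered 1, 52 and 39. The highest cell had 27, 191 and 81 reads. Day 7 thus had a smaller share of positive cells than day 3, with a similar median in the positive cells. The 5 highest cells of a culture held 94.4% to 100% of its Chac1 reads on day 1, 49.7% to 66.0% on day 3 and 58.7% to 99.8% on day 7, so the level of a culture rested on few cells. Without thinning, the mean share over cultures was 9.92%, 34.1% and 20.2%, beside 8.84%, 33.6% and 15.6% with it.

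**Figure D2:**
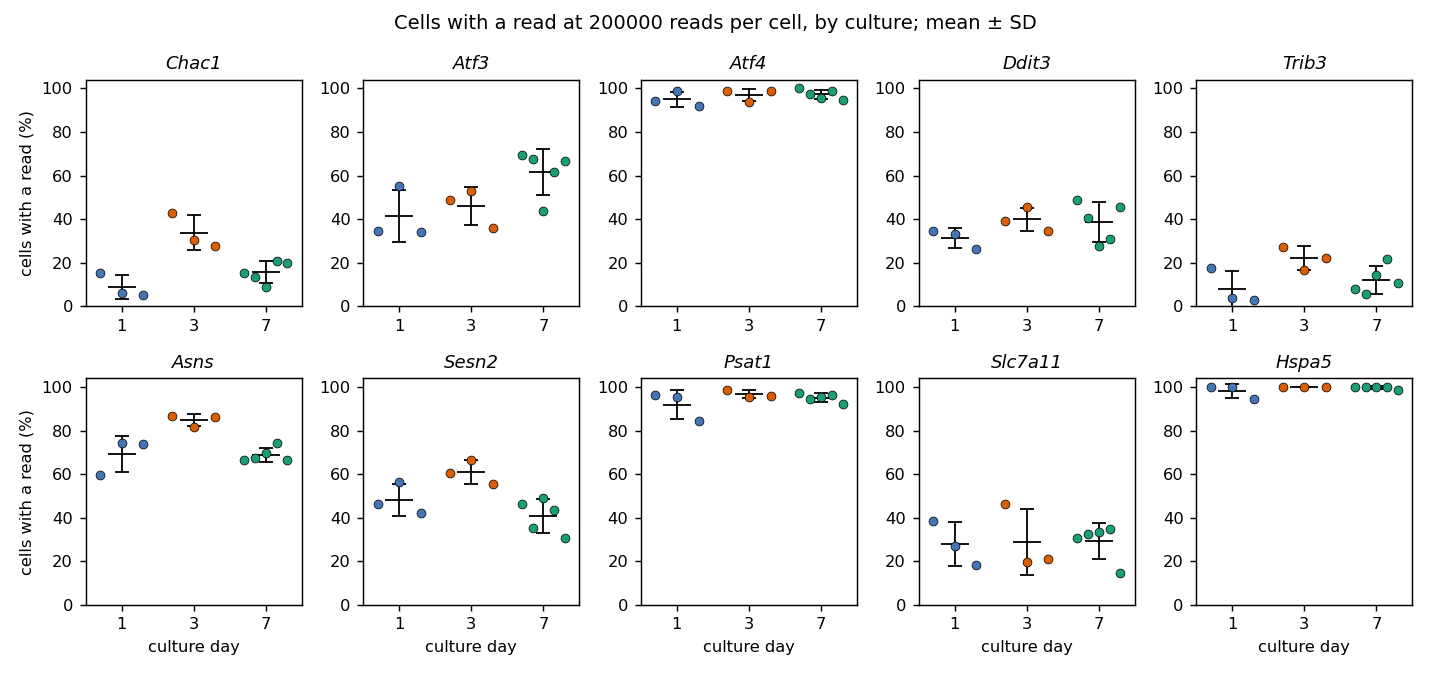
Percent of cells with at least 1 read of each gene after thinning every cell to 200000 reads, by culture (points), with mean and SD over the cultures of a day; all axes start at 0%. Chac1 and Trib3 are found in a minority of cells on each day, and Atf4, Psat1 and Hspa5 in nearly all.

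The other genes fell into 3 kinds by this measure. Hspa5, Atf4 and Psat1 were found in 99.6%, 96.8% and 95.1% of all thinned cells, so that their differences lay in reads per cell: the median positive cell had 228, 409 and 531 Hspa5 reads on days 1, 3 and 7, and 38, 87 and 76 Psat1 reads. Asns, Atf3, Sesn2, Ddit3 and Slc7a11 were found in 74.5%, 51.8%, 49.6%, 36.7% and 29.1%. Trib3, in 14.8% of cells, was the gene most like Chac1 (20.0%) in its sparseness, with 13 of 175, 50 of 222 and 40 of 298 positive cells.

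Asns moved in both measures, from 122 of 175 cells with a median of 22.5 reads on day 1 to 189 of 222 cells with 39 reads on day 3 and 207 of 298 cells with 22 reads on day 7. Atf3 also moved in both measures, from 78 of 175 cells with a median of 16 reads to 102 of 222 with 18 and 180 of 298 with 42. Pooled, 51 of 298 cells had at least 100 reads on day 7, where 4 of 175 had on day 1 and 5 of 222 on day 3. The cultures of day 7 differed: the 90th percentile over cells ran from 27.8 reads in replicate 1 to 286 in replicate 5. Ddit3 was found in 56 of 175, 88 of 222 and 111 of 298 cells with medians of 5, 5 and 6 reads. A Slc7a11-positive cell had a median of 1.5 reads on day 1 and 1 on the other days, so its shares rest on single reads. Without thinning its mean share on day 1 was 52.6%, beside 28.0% with it.

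Across the cells of a culture, Chac1 ranked with Atf4 more closely than with any other of the 9666 genes that had a read in at least 20% of cells. The mean Spearman correlation over the 11 cultures was 0.303, and it was positive in 11 of 11. On day 3 it was 0.389, 0.385 and 0.500, on day 1 0.304, 0.172 and 0.334, and on day 7 0.325, 0.106, 0.256, 0.177 and 0.387. Every day 3 value was above every day 1 value, and 1 day 7 culture (replicate 5) reached the day 3 range. The values rest on unequal numbers of cells with a Chac1 read. These were 8, 5 and 2 cells in the day 1 cultures, 36, 20 and 20 on day 3, and 6, 5, 6, 16 and 15 on day 7. The part of these numbers in the differences between days was not tested. The correlations are descriptions: the cells of a culture share plate, depth and handling.

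Trib3, which was detected in too few cells to be ranked with the others, had a mean correlation of 0.218 with Chac1. On day 3 it was 0.509, 0.518 and 0.464, above that of Atf4 in 2 of the 3 cultures, while on day 7 it ran from -0.122 to 0.329. Asns followed with 0.181 (positive in 10 of 11 cultures; 0.272 to 0.480 on day 3), then Ddit3 with 0.156 (10 of 11), Sesn2 with 0.153 (9 of 11) and Psat1 with 0.151 (9 of 11; 0.279 to 0.423 on day 3). Slc7a11 had 0.112, Atf3 0.104 and Hspa5 0.049, close to the median of 0.036 over all genes. Asns and Psat1 thus ranked with Chac1 on day 3 in 3 of 3 cultures, and Hspa5, at -0.067 to 0.035 on that day, did not.

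All 45 pairs among the 10 genes had a positive mean correlation, with a median of 0.108 and a range from 0.006 (Atf3 with Slc7a11) to 0.303, but only 2 pairs were positive in every culture. A positive mean is common here, since 79.1% of all ranked genes had one with Chac1. The second highest pair was Asns with Psat1, at 0.297. Cell quality moved with these genes too: Chac1 had a mean correlation of 0.143 with the reads of a cell, 0.160 with its number of genes and -0.180 with its mitochondrial share, which was negative in 11 of 11 cultures. For Asns these were 0.273, 0.321 and -0.306. Their part in the correlations between genes was not tested.

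**Figure D3:**
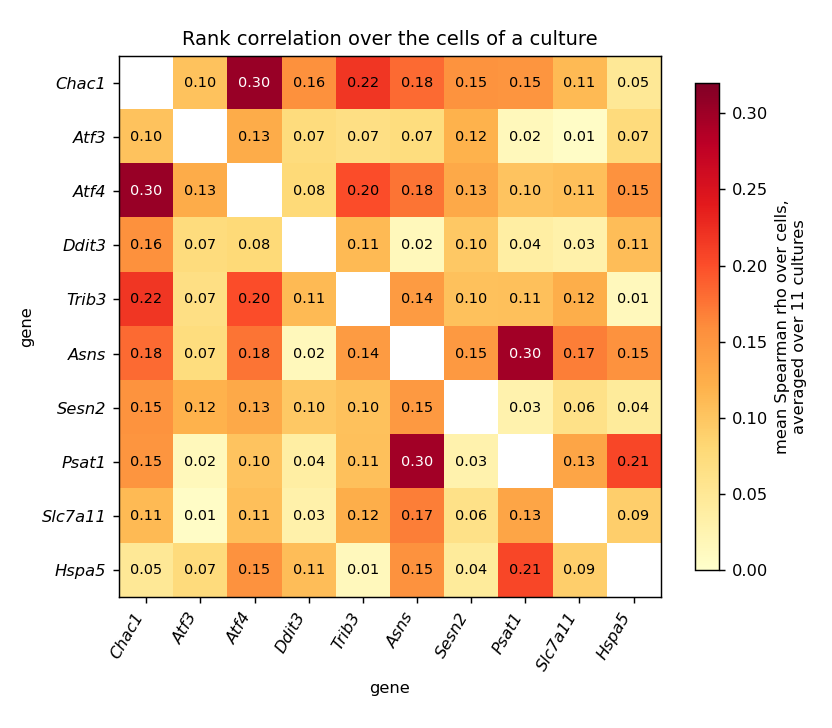
Mean over 11 cultures of the Spearman correlation over the cells of a culture, for each pair of the 10 genes, as a colour from 0 to 0.32 with the value printed in the cell. Chac1 with Atf4 and Asns with Psat1 are the highest pairs, and Atf3 with Slc7a11 and Trib3 with Hspa5 the lowest.

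The genes outside the set that ranked closest to Chac1 across cells included several of the same pathway. Mthfd2, a mitochondrial enzyme of one-carbon metabolism, came second after Atf4 with 0.261 (11 of 11 cultures). Others were Eif4ebp1, a repressor of cap-dependent translation, with 0.210, Herpud1, a membrane protein of ER-associated degradation, with 0.200, and the leucine transporter Slc7a5 with 0.195. Eif1, Cfl1, Mfsd11 and Gpt2, at 0.188 to 0.190, were also among the 10 closest, with 1 predicted gene passed over. By list, 12 of 20 cytosolic aminoacyl-tRNA synthetases, 6 of 11 amino acid transporters and 6 of 11 genes of amino acid and one-carbon synthesis were in the highest 5% of all ranked genes (a correlation of at least 0.108). Of the ER list 2 of 22 were, and of the p53 and immediate early lists 0 of 9 and 0 of 13.

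Over the 11 culture levels, in place of cells, the genes most like Chac1 by Pearson correlation of log2 CPM, among 9070 genes with a mean of at least 10 CPM, were Psat1 (0.929), Gars (0.928), Ccdc91 (0.916), Dhx32 (0.912), Eprs (0.908), Pck2 (0.908), Apmap (0.898), Cars (0.892), Ero1lb (0.890) and Imp4 (0.886). Of these, Gars, Eprs and Cars charge tRNAs with glycine, with glutamate and proline, and with cysteine. Pck2 is the mitochondrial phosphoenolpyruvate carboxykinase. Atf4 was at rank 70 by this measure (0.753), Hspa5 at 103, Asns at 192, Sesn2 at 1588, Atf3 at 2782 and Ddit3 at 3192. Likeness over cultures rests in large part on the 3 day means. The genes named by this measure and across cells differed, but the rankings shared genes further down. Cars was at rank 8 over cultures and 15 across cells, and Nars at 14 and 12.

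Other genes were followed in 10 lists with 141 genes tested, called pathway genes for short. The lists also hold other stress programmes: NRF2 targets, p53 targets, heat shock genes and immediate early genes. On day 3 against day 1, 0 of the 141 passed edgeR's test, and DESeq2 called 12 and limma 1. By edgeR 48 had an unadjusted p under 0.05, as did 9.26% of all genes. For day 7 against day 1, 31 (22.0%) passed, 25 upwards and 6 downwards, beside 7.11% of all genes. Of the 25, 9 were immediate early genes. For day 7 against day 3, 5 (3.55%) passed, beside 0.968% of all genes. Fosb, Ier2, Egr1, Fos, Jun and Nqo1 are the 6 of the 31 that passed when each of the 11 cultures was left out in turn. All but Nqo1, an NRF2 target, are immediate early genes. None is in the lists of ATF4 partners, tRNA synthetases, amino acid genes or ER genes. Of the 5 called between day 7 and day 3, 0 passed each time. The count of 31 fell to 8, 11 and 9 without day 1 replicate 1, 2 or 3, to 19 and 14 without day 7 replicate 3 or 4, and to 0 in the first file and 9 in the second alone. The count of 5 was 2, 1 and 1 without day 3 replicate 1, 2 or 3, 0 without day 7 replicate 1, 3 without day 1 replicate 3 or day 7 replicate 2 or 4, and 9 without day 7 replicate 3.

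Of the 20 cytosolic aminoacyl-tRNA synthetases, which load amino acids onto tRNAs, 7 rose from day 1 to day 7 and 0 fell, beside 3.55% and 3.56% of all genes. An unadjusted p under 0.05 by edgeR was found for 14, all higher, and for 23.6% of all genes. Farsb rose by 0.72 on the log2 scale (SE 0.16, adjusted p = 0.0214), from 98.1 ± 10.7 to 161 ± 21.6 CPM, and Gars by 0.71 (SE 0.16, adjusted p = 0.0222), from 118 ± 13.8 to 193 ± 17.5 CPM. Yars, Dars, Aars, Cars and Vars rose by 0.77 to 1.10. The calls of Farsb and Gars were each lost when any of 5 single cultures was left out (adjusted p from 0.0518 to 0.124 and from 0.0586 to 0.0951, edgeR). Those of the other 5 were lost with any of 5 to 7. The median of the list was 0.57 between day 7 and day 1 and 0.69 between day 3 and day 1, beside all-gene medians of 0.00 and 0.02. In each of these comparisons 19 of 20 synthetases were higher on the later day. Cars, at 53.6 ± 2.90, 144 ± 12.0 and 94.9 ± 22.4 CPM over the 3 days, had its highest mean on day 3, as Chac1 and Asns did.

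Of 14 genes of amino acid and one-carbon synthesis, 3 rose and 1 fell on day 7 against day 1, beside 3.55% and 3.56% of all genes. Shmt2, mitochondrial serine hydroxymethyltransferase, had 69.4 ± 5.87, 162 ± 7.74 and 124 ± 25.3 CPM on days 1, 3 and 7 and rose by 0.83 (SE 0.18, adjusted p = 0.0205). Gpt2, an alanine aminotransferase, and Pck2 rose by 1.18 and 1.09. The call of Shmt2 was lost when any of 4 single cultures was left out (adjusted p from 0.0509 to 0.107, edgeR). That of Gpt2 was lost with any of 5 (0.0589 to 0.139, edgeR), and that of Pck2 with any of 10 (0.055 to 0.171, edgeR). Psph, which completes serine synthesis after Psat1, fell by 0.96 (SE 0.23, adjusted p = 0.0283), from 131 ± 24.3 to 67.2 ± 12.4 CPM, so the 2 neighbouring enzymes of that pathway went opposite ways. The call of Psph was lost when any of 4 single cultures was left out (adjusted p from 0.0525 to 0.116, edgeR), and that of Psat1 with any of 7. Of 11 amino acid transporters only Slc7a3, a cationic amino acid transporter, passed, where 7.11% of all genes did. It fell by 1.46 (SE 0.39, adjusted p = 0.0407), a call lost when any of 10 single cultures was left out (0.0506 to 0.141, edgeR). Slc1a5, which imports glutamine, had a difference of 1.01 (SE 0.36, adjusted p = 0.105).

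Upstream, 1 of 13 genes for eIF2 kinases, phosphatase subunits and eIF2B rose from day 1 to day 7, beside 3.55% of all genes. This was Eif2s1, the eIF2 subunit that the kinases phosphorylate, by 0.64 (SE 0.15, adjusted p = 0.0240). The call of Eif2s1 was lost when any of 5 single cultures was left out (adjusted p from 0.0564 to 0.144, edgeR). The phosphatase subunit Ppp1ca had 0.56 (SE 0.16, adjusted p = 0.0514). Phosphorylation of eIF2 is not measured by these libraries.

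Among 13 partners and other regulators, 1 rose and 1 fell on day 7 against day 1, both with few reads, beside 3.55% and 3.56% of all genes. Fgf21, a stress hormone and ATF4 target, had 0 reads in the 3 day 1 cultures, 710 on day 3 and 337 on day 7. Against a floor of 3 reads over all day 1 cells, the bounds were 174-fold on day 3 and 54.2-fold on day 7. This floor covers counting error only, not the spread between cells or cultures. Fgf21 passed for day 7 against day 1 (adjusted p = 0.0407, edgeR), but not when any of 9 single cultures was left out (0.053 to 0.116). Its levels were 7.34, 2.31 and 2.41 CPM on day 3 and 0.465, 0, 0.434, 2.19 and 1.99 CPM on day 7, and without day 3 replicate 1, which held most of the day 3 reads, the day 3 bound was 93.2-fold. Without day 1 replicate 2, the deepest of that day, the bounds were 82.7-fold and 25.7-fold. Nupr1, a stress-induced chromatin protein, gave 309, 2525 and 10 reads over the cultures of the 3 days. The ratio of day 1 to day 7 per read was 64.1 (95% interval for counting error 34.4 to 135, adjusted p = 0.0218, edgeR). It was 48.2 without day 7 replicate 4 and 153 without day 7 replicate 5. The day 7 against day 1 call was lost without day 1 replicate 1 or 2 (adjusted p from 0.0511 to 0.0619, edgeR) and by limma. Its day 3 level came from 1 culture, 47.0 CPM in replicate 3 against 0.957 and 0.860 CPM. Nupr1 and Stc2, a secreted glycoprotein induced by ER stress (8.46 ± 1.60 to 1.76 ± 0.212 CPM), fell from day 3 to day 7 (adjusted p = 0.0199 and 0.0289). The day 7 against day 3 call of Nupr1 was lost without day 3 replicate 3 or day 7 replicate 1 (adjusted p of 0.248 and 0.0573), and that of Stc2 without any 1 of the 3 day 3 cultures or day 7 replicate 1 or 4 (0.0521 to 0.148).

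Of 23 genes for ER chaperones and ER-associated degradation, 4 rose from day 1 to day 7 and 1 fell, beside 3.55% and 3.56% of all genes. Hspa5 is not counted among them. Xbp1, the transcription factor activated by splicing in the unfolded protein response, rose by 0.77 (SE 0.18, adjusted p = 0.0228), from 135 ± 23.8 to 230 ± 33.1 CPM. Ero1lb, an oxidase that serves disulfide formation, rose by 1.55 (SE 0.36, adjusted p = 0.0243), and Herpud1 and Creld2 rose by 1.33 and 0.71. The calls of Xbp1 and Herpud1 were each lost when any of 3 single cultures was left out (adjusted p from 0.0633 to 0.14 and from 0.0674 to 0.141, edgeR). That of Ero1lb was lost with any of 4 (0.0523 to 0.0885, edgeR), and that of Creld2 with any of 10 (0.0514 to 0.216, edgeR). Ero1l, a hypoxia-responsive relative of Ero1lb, fell by 1.56 (SE 0.38, adjusted p = 0.0288), from 130 ± 46.4 to 44.2 ± 9.12 CPM. Its call was lost when any of 4 single cultures was left out (adjusted p from 0.0507 to 0.115, edgeR).

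Of 14 other genes for glutathione metabolism and NRF2 targets, 1 fell from day 1 to day 7, beside 3.56% of all genes. The 4 with an unadjusted p under 0.05 by edgeR were all lower, where 23.6% of all genes had such a p. Nqo1, a quinone reductase and NRF2 target, fell by 4.80 on the log2 scale (SE 0.88, adjusted p = 0.00852), from 147 ± 78.1 to 5.25 ± 5.50 CPM (-5.69 without day 7 replicate 3), and Hmox1 had -1.26 (SE 0.42, adjusted p = 0.0902). Chac2, the paralog of Chac1 with the same activity, had 9.77 ± 3.02, 8.27 ± 4.62 and 5.89 ± 3.03 CPM and a difference of -0.73 (SE 0.52, adjusted p = 0.429). The 2 paralogs thus had unlike levels over the days.

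Lists of other stress programmes were read beside these. Of 14 immediate early genes 9 rose from day 1 to day 7 and 0 fell, among them Fosb by 3.39 (SE 0.46, adjusted p = 0.00223) and Ier2 by 2.15 (SE 0.30, adjusted p = 0.00243); Fosb and Jun also rose from day 3 to day 7. Of 9 heat shock genes 1 fell, beside 3.56% of all genes. This was Hspb1, by 1.79 (SE 0.40, adjusted p = 0.0199), a call lost without day 1 replicate 2 or 3 (0.0567 to 0.0918, edgeR). Hspa8 had 0.48 (SE 0.17, adjusted p = 0.103). Of 10 p53 targets, 0 passed on day 7 against day 1 by edgeR, and DESeq2 called 1 and limma 0. By edgeR 1 had an unadjusted p under 0.05, where 23.6% of all genes did. Cdkn1a had -0.88 (SE 0.29, adjusted p = 0.0851) and Aen 0.63 (SE 0.30, adjusted p = 0.216). Phlda3, a p53 target, fell from day 3 to day 7 by 1.29 (SE 0.27, adjusted p = 0.0485). That call was lost when any of 10 single cultures was left out (adjusted p from 0.0668 to 0.156, edgeR).

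**Figure D4:**
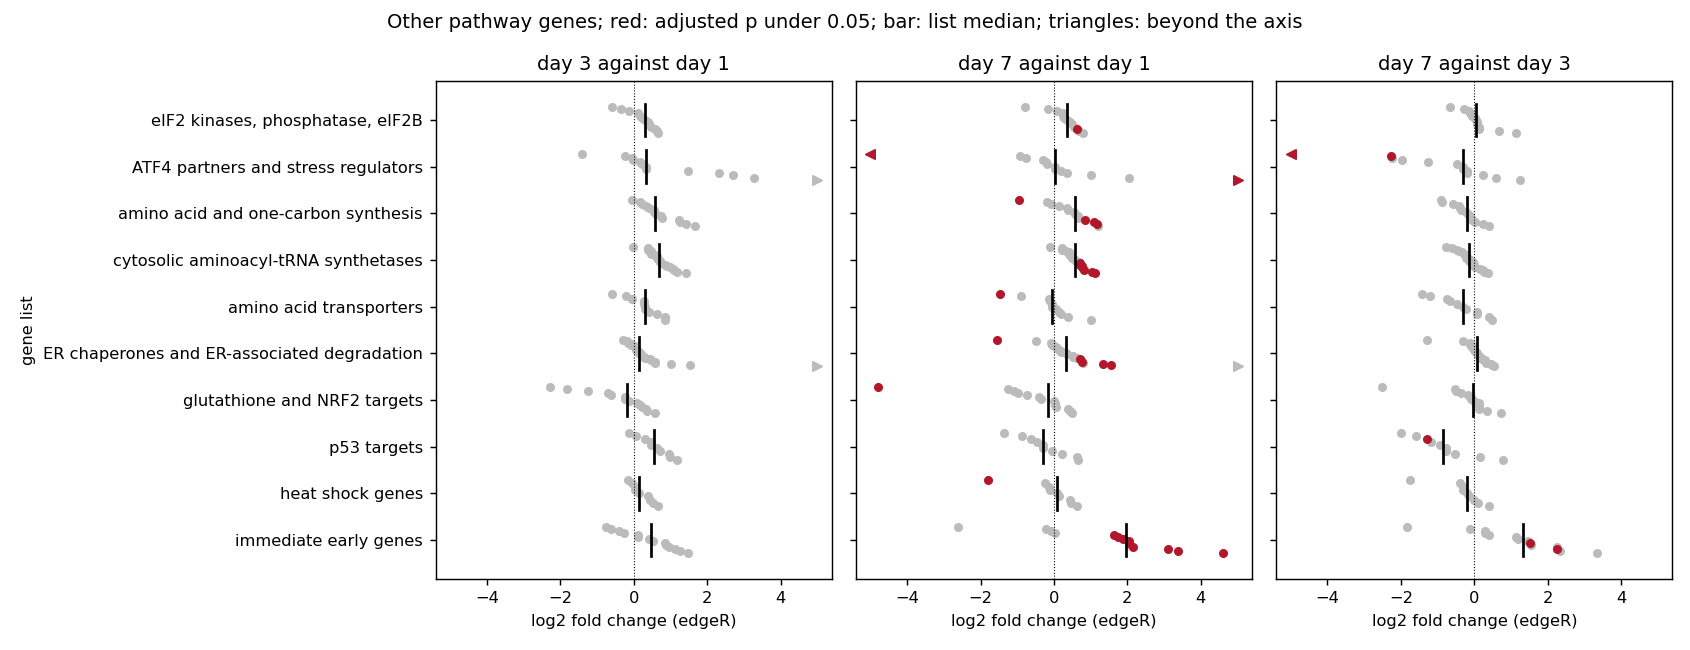
Fitted log2 fold changes of the 141 genes of the 10 lists, which include other stress programmes, for the 3 comparisons of days. Red marks an adjusted p under 0.05 by edgeR, the bar is the list median, and values beyond 5 are triangles at the edge. In the middle panel the tRNA synthetases have 7 and the immediate early genes 9 genes that passed, all higher on day 7, and in the left panel 0 of 141 passed.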

How the data were processed

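The authors deposited 2 files of expected counts, unnormalized read estimates for every gene in each cell; STAR 2.5.3a, RSEM 1.3.0, mm10 and GRCm38 are named per the submitters' processing notes. Rows for 92 spike-ins and 4 transgenes were left out. Of the values above 0, 10.6% were not whole, and counts were rounded. No 2 cells had identical columns. Cells with at least 50000 reads, at least 1500 genes and at most 20% mitochondrial reads were kept (711 of 768) and summed per culture, taken as day and replicate number. The 11 cultures entered 1 fit with day as the only term in edgeR 4.0.16 (R 4.3.3; TMM, filterByExpr, quasi-likelihood F-test, Benjamini-Hochberg over 17466 genes, called at 0.05). SE is the log2 fold change divided by the square root of F. On simulated counts with 200 genes changed 4-fold (dispersion 0.15), the day 7 against day 1 fit recovered 90.5% with 2 false calls. For measures per cell, 695 cells were thinned to 200000 reads; 16 kept cells were shallower. Reads are PCR copies, so counting intervals cover counting error only. Coordinates are from GENCODE M21 (GRCm38) for gene versions found in both sources; that of Atf4 differed, and none is given. Promoters are from RefSeq. DESeq2 1.42.0 and limma 3.58.1 served as alternatives. The members, lists and tests were chosen with earlier results of these data known. Named were the members, the 2 genes of each list with the smallest adjusted p for day 7 against day 1, and the 10 genes most like Chac1 over cells and over cultures; predicted genes were passed over, and 1 of the 10 over cells is not reported here. Other list genes named were picked after their values were seen.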

Additional observations from a re-analysis of the deposited data

Results flagged for a closer look

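Among the 5 day 7 cultures, replicate 5 stood apart from the others in 2 of the 20 sets of values checked (level and share of cells for each of the 10 genes), where chance gives about 1 in 20. It had a Slc7a11 read in 14.67% of its cells, against 30.77% to 34.62% in the other 4 cultures, and a Hspa5 read in 98.67%, against 100% in each of the others, which is 1 cell of 75. With the other 4 all at 100%, any 1 cell without a read sets the Hspa5 flag, so the chance rate does not apply to it. Day 7 replicate 5 also had the highest median mitochondrial share (6.76%) and the fewest genes per cell (5681), and is the only day 7 culture in the second file. The part of these in the 2 values was not tested.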

How the results depend on the processing

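Levels of the members and counts of calls were recomputed under 22 alternatives, 11 of them leaving out 1 culture; for the other pathway genes named this was added after seeing the data (Nupr1 had 21). Shares of cells and rank correlations were recomputed only without thinning and with stricter limits on cells. The Chac1 log2 ratio of day 3 to day 1 stayed within the spread between cultures (4.06 to 4.73 without 1 culture), that of day 7 to day 1 moved to 2.05 and 3.95 in the first and second file alone and to 2.27 with limma, and that of day 7 to day 3 to -0.71 in the second file. Each file alone leaves 1 culture on some days, which is assumed to vary like the others. Without 1 culture, members called ran from 1 to 3 (day 7 against day 1) and from 0 to 1 (day 7 against day 3). In the first file these were 0 and 0, in the second 0 for day 7 against day 3, and by DESeq2 4 (Atf3, Hspa5, Psat1, Slc7a11) and 2 (Asns, Atf3).

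Same-numbered cultures showed little sign of pairing: their deviations from the day mean correlated between -0.0101 and 0.0614 over the genes tested. A low correlation does not exclude a pairing, and the labels do not settle it. With a replicate block, 22 genes were called on day 3 against day 1, 96 on day 7 against day 3, and 1 member (Hspa5) on day 7 against day 1, with 3 and 1 pathway genes on day 3 against day 1 and day 7 against day 3.

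Counts of genes called on day 3 against day 1 (2) were 13 with no filter on low counts, 0 and 18 in the first and second file, 8 with thinned cells, 259 by DESeq2, 69 by limma and 0 to 5 without 1 culture; those of pathway genes (0) were 1 with thinned cells, 12 by DESeq2, 1 by limma and 0 to 1 without 1 culture. Between day 7 and day 1 (1241) they were 15 and 125 in the 2 files, 2318 by DESeq2 and 436 to 1380 without 1 culture, and pathway genes (31) 0, 9 and 8 to 32 in the 2 files and without 1 culture. Between day 7 and day 3 (169) they were 102 with file as a term, 0 and 20 in the 2 files, 639 by DESeq2 and 35 to 174 without 1 culture, and pathway genes (5) were 3, 0, 0 and 18 in that order, 8 with thinned cells and 0 to 9 without 1 culture.

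Direction changed only for members whose difference was not called. Between day 7 and day 1 these were Asns (-0.042 with RLE factors, -0.023 with no filter, -0.25 with the replicate block, -0.12 in the first file, -0.013 thinned, -0.042 by DESeq2, -0.13 to 0.15 without 1 culture), Ddit3 (-0.0041 with the block, -0.061 thinned, -0.14 by limma, -0.14 to 0.62 without 1 culture), Sesn2 (0.076 with the block, 0.026 by limma, -0.26 to 0.078 without 1 culture) and Trib3 (-0.35 in the first file). Between day 7 and day 3 they were Atf4 (0.0061 in the first file, 0.022 by limma), Ddit3 (-0.24 with the block, -0.098 with no cell left out, -0.045 thinned, -0.031 by limma, -0.37 to 0.375 without 1 culture), Psat1 (0.071 in the second file) and Slc7a11 (-0.74 to 0.080 without 1 culture, 0.080 without day 3 replicate 3). The causes were not tested. Leaving aside day 3 against day 1, Atf3 was called in 4 and 1 of 22 alternatives. At 200000 reads per cell, a cell without a Chac1 read may still hold its transcript.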
